A study of Mus musculus with 22 samples.

Results

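The lipolytic enzymes of pancreatic juice were followed across 22 whole-pancreas libraries as 6 listed genes: Pnlip, Pnliprp1, Pnliprp2, Cel, Clps and Pla2g1b. A probe belonged to the set when its gene symbol was on this list. That gave 7 probes for 5 of the 6 genes, out of 30146 probes and 21450 gene symbols in the count table. Pnlip and Pnliprp1 had 2 probes each, and Clps, which encodes colipase, had no probe in the table and was not analysed here.

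The assay was TempO-Seq, in which a pair of oligonucleotides is ligated on a short stretch of a transcript and the ligated products are counted by sequencing. The labels describe pancreas of C57Bl/6 dams given TCDD or corn oil, and of 1 female and 1 male newborn per litter, all collected on the day of birth. TCDD (tetrachlorodibenzo-p-dioxin, a ligand of the aryl hydrocarbon receptor) was dosed at 20 ng/kg per day with 2 subcutaneous injections a week, from before mating until birth, and control dams received the corn oil vehicle on that schedule. Pups were exposed only through the dam. The labels give 4 TCDD dams, 4 TCDD female pups and 4 TCDD male pups, against 4 control dams, 3 control female pups and 3 control male pups. The age of the dams is not given in the sources used here.

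The stage labels conflict with stage genes in 8 of the 22 libraries, and the sex labels with Y-linked genes in 10, so 13 libraries went against at least one label (7 labelled TCDD and 6 labelled control). The genes are therefore described in 2 classes of library set by counts. The adult type has more counts of Pnlip than of Afp (alpha-fetoprotein, a fetal plasma protein), and holds 8 libraries: 6 labelled TCDD (dams 8 and 11, female pup 6, male pups 8, 10 and 11) and 2 labelled control (dams 5 and 7). The newborn type has more counts of Afp than of Pnlip, and holds 14 libraries: 6 labelled TCDD (dams 6 and 10, female pups 8, 10 and 11, male pup 6) and 8 labelled control (dams 2 and 4, and all 6 control pups). Pnlip is one of the described genes, so its difference between the classes was chosen by the rule and is a description, and no test was made between the classes for any gene. A rule that used Afp alone, at 10 CPM (counts-per-million, with a library's summed counts as the base), put all 22 libraries in the same class. Nearest the boundary, Afp was 8.29-fold above Pnlip in a newborn-type library and Pnlip was 34349-fold above Afp in an adult-type one. Total counts ranged from 11223816 to 34911410 per library, and the classes also differed in how concentrated the counts were: the 20 most abundant probes of a library took 69.8 to 74.7% of its counts in the adult type and 47.1 to 59.6% in the newborn type.

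Dietary fat is digested in the gut lumen by enzymes that acinar cells make and release in zymogen granules. Pancreatic triglyceride lipase (Pnlip) splits triglycerides into fatty acids and monoglycerides, and colipase anchors it to fat droplets covered with bile salts. Carboxyl ester lipase (Cel) needs bile salts and accepts a broad range of esters, cholesteryl esters among them, and is also found in milk. PNLIPRP2 attacks galactolipids and phospholipids as well as triglycerides, PNLIPRP1 has little or no known lipase activity despite its close similarity to PNLIP, and phospholipase A2 group IB (Pla2g1b) is secreted as a proenzyme that trypsin activates and removes a fatty acid from phospholipids. In rats, Pnliprp1 and Pnliprp2 transcripts are known to be abundant around birth, when the Pnlip transcript is scarce.

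The start regions of 4 of the genes are shown because 3 of them are neighbours on 1 chromosome and yet had unlike class ratios, while Cel lies elsewhere. RefSeq promoter sequences on GRCm38.p6, from 250 bases before the start site to 50 after it, matched 5 of the 6 genes. Pnlip lies at chr19:58670115-58670414, Pnliprp1 at chr19:58728637-58728936 and Pnliprp2 at chr19:58759473-58759772, all on the plus strand, and Cel at chr2:28563354-28563653 on the minus strand. The start sites of Pnlip and Pnliprp1 are 58.5 kb apart, and those of Pnliprp1 and Pnliprp2 are 30.8 kb apart. Each is written 5′ to 3′ along the gene. Capitals mark matches on either strand to 4 motifs: the E-box CANNTG and the TC-box TTTCCC, the 2 parts of the element bound by the acinar PTF1 complex, the nuclear receptor (NR) site AGGTCA, and the TATA box TATAAA.
Pnlip: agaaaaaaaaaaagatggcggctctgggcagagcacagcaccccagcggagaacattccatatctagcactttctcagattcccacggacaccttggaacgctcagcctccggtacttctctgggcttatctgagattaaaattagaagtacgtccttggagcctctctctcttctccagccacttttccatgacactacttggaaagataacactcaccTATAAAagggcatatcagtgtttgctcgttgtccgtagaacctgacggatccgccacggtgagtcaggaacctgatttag
Pnliprp1: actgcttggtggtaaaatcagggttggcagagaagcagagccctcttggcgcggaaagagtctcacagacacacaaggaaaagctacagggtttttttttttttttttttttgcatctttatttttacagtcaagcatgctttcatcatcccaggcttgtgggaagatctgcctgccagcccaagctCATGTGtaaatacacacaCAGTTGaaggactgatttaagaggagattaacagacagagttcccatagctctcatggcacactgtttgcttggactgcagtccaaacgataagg
Pnliprp2: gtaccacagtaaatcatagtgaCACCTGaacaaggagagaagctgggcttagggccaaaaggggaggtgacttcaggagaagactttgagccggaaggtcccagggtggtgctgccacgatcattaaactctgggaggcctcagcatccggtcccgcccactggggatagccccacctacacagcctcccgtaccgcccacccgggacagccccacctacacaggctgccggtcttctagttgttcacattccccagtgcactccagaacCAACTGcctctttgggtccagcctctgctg
Cel: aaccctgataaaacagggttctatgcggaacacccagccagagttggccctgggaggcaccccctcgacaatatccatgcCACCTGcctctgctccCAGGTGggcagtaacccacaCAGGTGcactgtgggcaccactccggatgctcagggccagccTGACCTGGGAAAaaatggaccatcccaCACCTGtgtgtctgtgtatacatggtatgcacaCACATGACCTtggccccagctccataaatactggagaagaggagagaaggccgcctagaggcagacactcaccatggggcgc

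Positions count from RefSeq's start sites, and another choice of start site would move them. GENCODE vM21 has coding transcripts with the same start for Pnlip and Pnliprp1, 4 bases upstream for Pnliprp2 and 41 bases downstream for Cel, whereas those of Pla2g1b start at least 120 bases downstream of RefSeq's. The Pnlip window held a TATA box whose first base lies at -30 from the start site, and none of the other 3 motifs. Pnliprp1 had E-boxes at -63 and -45 and Pnliprp2 had E-boxes at -228 and 21, with no TC-box in either window. Cel had 5 E-boxes, at -170, -154, -134, -65 and -32, a TC-box at -86 and NR sites at -92 and -28. The NR site at -92 directly adjoins the TC-box, and the NR site at -28 shares bases with the E-box at -32, so each of these pairs reads as 1 run of capitals. The window of Pla2g1b, at chr5:115465892-115466191 on the plus strand, held none of the 4 motifs, does not reach the GENCODE starts of that gene, and is not printed. Among 32851 promoters of the same length, 72.3% held an E-box, 25.2% a TC-box, 16.3% a NR site and 13.6% a TATA box. These are matches of letters and are not evidence of binding.

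Pnlip was the gene with the highest ratio of class medians among 10679 genes with a mean of at least 1 CPM, and it also set the classes. Its summed probes stood at 40765 to 48925 CPM in the adult type (median 44548, n = 8) and at 22.3 to 91.6 CPM in the newborn type (median 38.5, n = 14), a 1157-fold ratio. The lowest adult-type library was 445-fold above the highest newborn-type library, and no library lay between. Newborn-type libraries still had 255 to 1546 counts of Pnlip each, well above a floor of 3 counts, which corresponds to 0.0859 to 0.267 CPM and covers counting error only. Within the adult type Pnlip was even, with a coefficient of variation of 5.41%, while in the newborn type it was the most variable of the 5 genes at 43.4%, with the library labelled TCDD female pup 10 highest and that labelled control dam 2 lowest. In whole tissue, fewer cells of a type and less RNA per cell cannot be told apart, for this gene or any below.

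Both Pnlip probes gave the split. Probe 31007 had a median of 21733 CPM in the adult type (lowest 19481) and 16.6 CPM in the newborn type, and probe 64704 a median of 22882 CPM in the adult type (lowest 20541) and 22.2 CPM in the newborn type. Their counts were in a ratio of 0.748 to 1.07 (median 0.977) in the adult type and 0.509 to 0.953 (median 0.779) in the newborn type. The 2 ranges overlap.

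Pnliprp1, the relative with little known activity, ran the other way on the CPM scale. It stood at 10698 to 15261 CPM in the adult type (median 12202) and 42646 to 56755 CPM in the newborn type (median 48590), so the newborn-type median was 3.98-fold higher and the classes did not overlap. The lowest newborn-type library was 2.79-fold above the highest adult-type library. Its 2 probes moved together, with newborn-type medians 4.03-fold and 3.84-fold higher, and kept a count ratio of 1.98 to 2.28 in the adult type and 2.01 to 2.43 in the newborn type.

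Pnliprp2 and Cel, the enzymes with the broader substrate ranges, had similar shares of the library in both classes. Pnliprp2 stood at 1448 to 2078 CPM in the adult type (median 1764) and 1161 to 1613 CPM in the newborn type (median 1377). Cel stood at 23261 to 31501 CPM in the adult type (median 24733) and 18441 to 25235 CPM in the newborn type (median 21332). The adult-type medians were 1.28-fold and 1.16-fold higher, and for both genes the ranges overlapped. Among all 22 libraries the one labelled TCDD female pup 6 was highest for Pnliprp2, Cel and Pla2g1b.

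Pla2g1b, the only phospholipase of the set, was higher in the adult type, with the sixth highest ratio of the 10679 genes. It stood at 537 to 1292 CPM in the adult type (median 766) and 45.6 to 73.7 CPM in the newborn type (median 57.6), a 13.3-fold ratio without overlap. It was the most variable of the 5 genes in the adult type, with a highest value 2.41-fold above the lowest, against 1.61-fold in the newborn type.

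**Figure D1:**
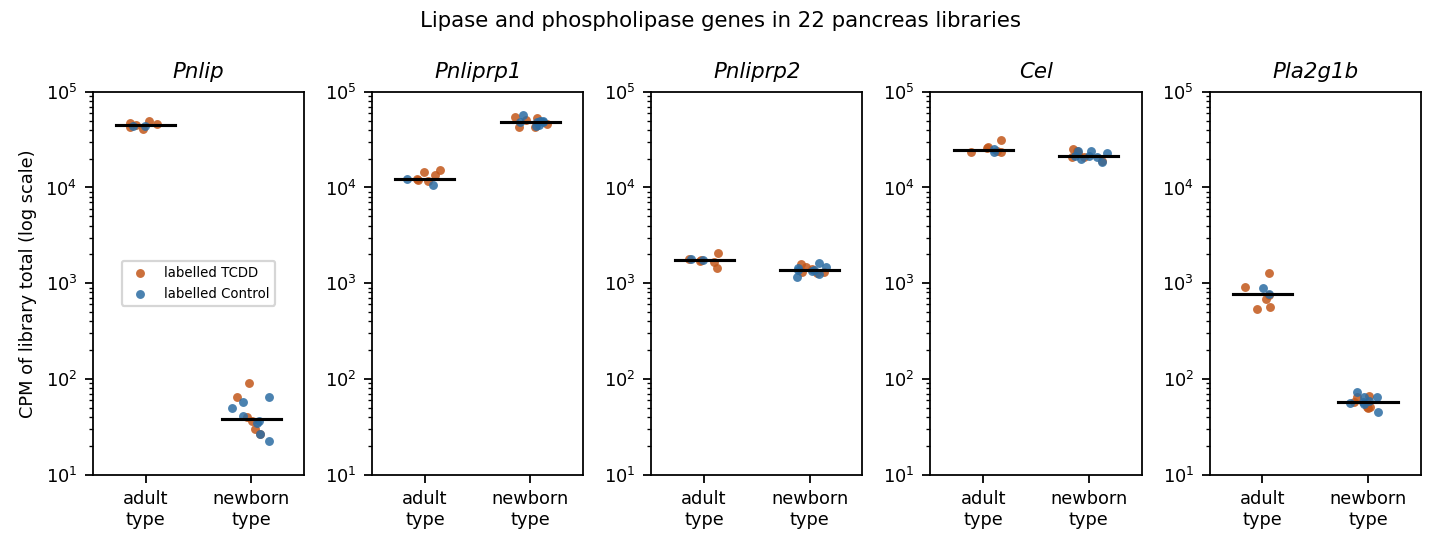
CPM (log axis) of the 5 genes, summed over probes, in 8 adult-type and 14 newborn-type libraries. Points are libraries coloured by chemical label and bars are class medians. Pnlip (44548 against 38.5 CPM) and Pla2g1b (766 against 57.6 CPM) lie higher in the adult type, Pnliprp1 (12202 against 48590 CPM) lies lower, and the ranges of Pnliprp2 and Cel overlap.

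Of the 5 genes, 2 were above the newborn type without overlap, where 0.496% of the 10679 genes were, and 1 was below it without overlap, where 76.2% of the genes were. The Pnliprp1 pattern on the CPM scale was thus that of most genes: the median gene had a log2 ratio of -1.72 and Pnliprp1 -1.99. Relative to that median the log2 ratios were 11.90 for Pnlip, 5.45 for Pla2g1b, 2.08 for Pnliprp2, 1.93 for Cel and -0.27 for Pnliprp1. The median over all genes was taken with 0.5 added to both class medians of each gene. The ratios of the 5 genes set against it had nothing added, which matters most for a value near 0, as for Pnliprp1. With library scaling by TMM (trimmed mean of M-values) the median gene moved to -0.13, and 9.70% of genes then lay above and 15.8% below without overlap. On that scale Pnliprp1 overlapped between classes, with a ratio of 0.958, and Pnliprp2 and Cel lay 4.51-fold and 4.06-fold higher in the adult type without overlap. Over 4 scalings, and relative to the median gene of each, the log2 ratio was 11.90 to 12.18 for Pnlip, 5.45 to 5.66 for Pla2g1b, 2.08 to 2.31 for Pnliprp2 and 1.93 to 2.18 for Cel. For Pnliprp1 it was -0.27 to 0.10, and its sign changed with the scaling.

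**Figure D2:**
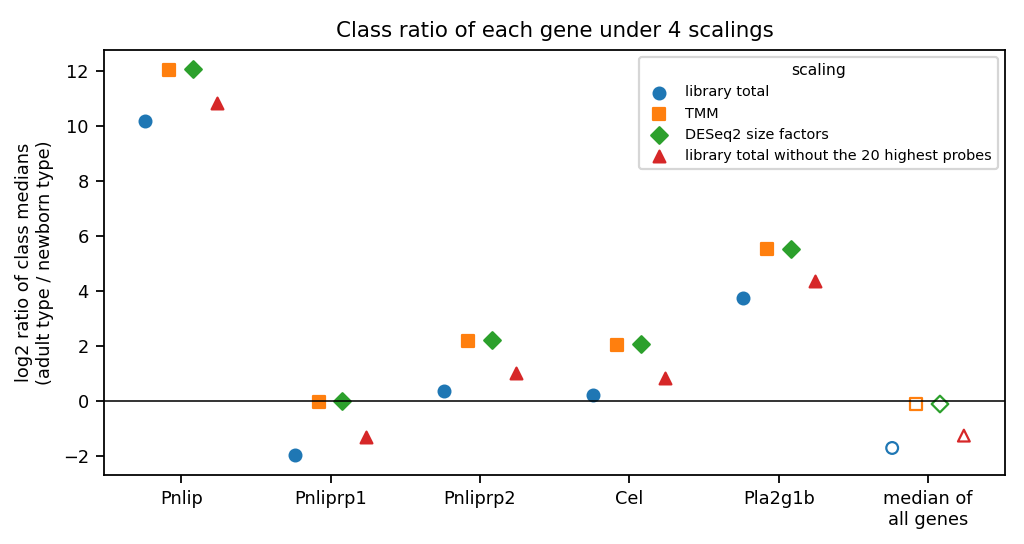
Log2 ratio of class medians (adult type over newborn type) of each gene under 4 library scalings, with the median of all genes (0.5 added to both class medians) as open symbols. Pnlip and Pla2g1b stay far above 0 under each scaling, while Pnliprp1 moves between -1.99 with library totals and -0.02 with DESeq2 size factors, as the median of all genes moves between -1.72 and -0.12.

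Ratios of 2 genes inside a library do not depend on library scaling. Pnlip over Cel was 1.45 to 1.93 in the adult type (median 1.78) and 0.00113 to 0.00401 in the newborn type (median 0.00174), a 1026-fold difference of medians. Pnliprp1 over Cel was 0.435 to 0.566 in the adult type (median 0.495) and 1.87 to 2.65 in the newborn type (median 2.13), so Pnliprp1 was 4.30-fold higher relative to Cel in the newborn type, without overlap. Pla2g1b over Cel was 0.0201 to 0.0410 in the adult type and 0.00196 to 0.00349 in the newborn type, an 11.7-fold difference. Pnliprp2 over Cel was alike, at 0.0566 to 0.0763 in the adult type (median 0.0705) and 0.0522 to 0.0875 in the newborn type (median 0.0620), with overlapping ranges. Of the 6 ratios computed, the widest apart was within the Pnlip family: Pnlip over Pnliprp1 was 2.98 to 4.21 in the adult type and 4.46e-04 to 0.00215 in the newborn type, 4719-fold apart by medians. Pnliprp1 over Pnliprp2 was 5.91 to 9.94 in the adult type and 28.7 to 41.5 in the newborn type.

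**Figure D3:**
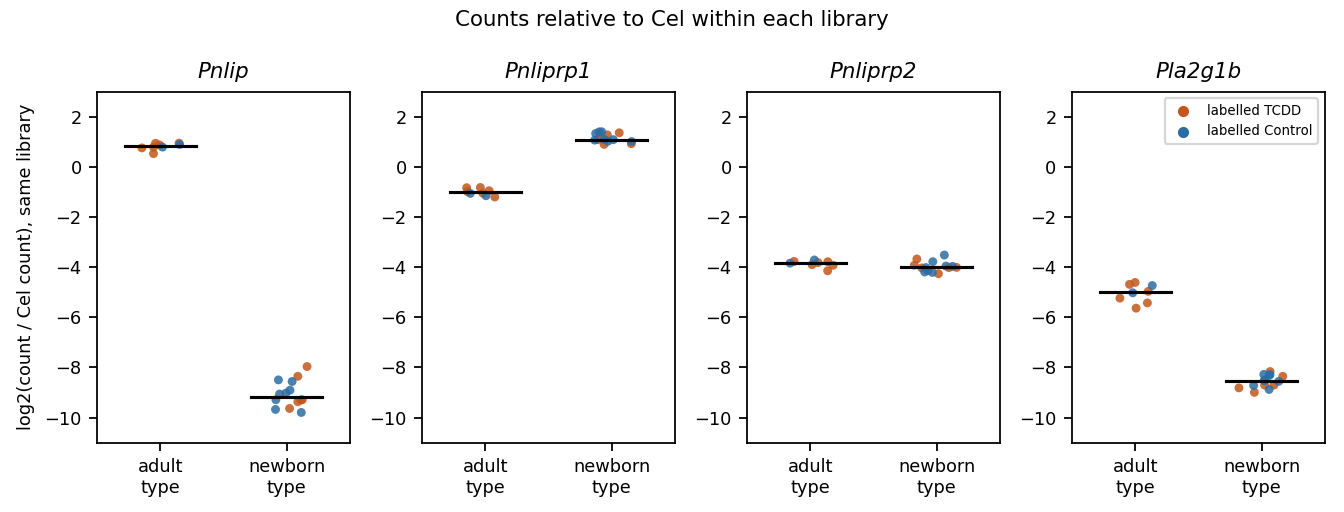
Log2 ratio of the counts of 4 genes to the count of Cel in the same library, for adult-type (left) and newborn-type (right) libraries. Points are libraries coloured by chemical label and bars are medians. Pnliprp2 overlaps between the classes (median ratio 0.0705 against 0.0620), while Pnliprp1 (0.495 against 2.13), Pnlip and Pla2g1b do not overlap.

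The 5 genes together took a narrow share of each library: 8.01 to 9.57% in the adult type (median 8.45%) and 6.31 to 8.02% in the newborn type (median 7.21%). The mix within that share differed. Pnlip made up a median of 53.2% of the 5-gene sum in the adult type and 0.0507% in the newborn type, and Pnliprp1 14.5% in the adult type and 66.8% in the newborn type. Cel kept a median share of 29.6% in the adult type and 31.4% in the newborn type, and Pnliprp2 2.09% in the adult type and 1.92% in the newborn type. Pla2g1b made up 0.936% in the adult type and 0.0821% in the newborn type. These are shares of probe counts, and probes differ in efficiency, so they do not rank the genes by transcript number.

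Class ratios were also computed without the libraries that went against their stage label. That leaves control dams 5 and 7 and TCDD dams 8 and 11 in the adult type, and pups alone in the newborn type. The stage match rests on the classes, so this only takes a part of each class, and close values are not independent support. The log2 ratio of class medians was then 10.10 for Pnlip (10.18 with all libraries), 3.84 for Pla2g1b (3.73), -1.96 for Pnliprp1 (-1.99) and 0.33 for Pnliprp2 (0.36). For Cel it was 0.07, against 0.21 with all libraries.

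Other acinar secretory enzymes leaned to the adult type. Of 21 with at least 1 CPM in either class, 13 were higher in the adult type without overlap, 2 were lower and 6 overlapped. Over all genes 0.496% were higher and 76.2% lower. With TMM scaling 9.70% of all genes were higher, and the enzymes were not counted on that scale. The median log2 ratio of the 21 in CPM was 0.63, against -1.72 over all genes. The highest ratios were those of the chymotrypsin genes Ctrc, at 138 to 232 CPM in the adult type and 4.17 to 8.38 CPM in the newborn type, and Ctrl, at 1975 to 2543 CPM in the adult type and 99.3 to 200 CPM in the newborn type. The lowest were those of Spink1, a trypsin inhibitor, at 728 to 942 CPM in the adult type and 1277 to 1808 CPM in the newborn type, and Ctrb1, at 9036 to 13181 CPM in the adult type and 16887 to 27250 CPM in the newborn type. Pnlip, whose count set the classes, had a log2 ratio of 10.16 with 0.5 CPM added. The highest value of the 21 was 4.77. Pnliprp1, at -1.99, lay below all 21, whose lowest value was -0.90.

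Lipases and phospholipases A2 outside the set had low counts. Class ratios are given with 0.5 CPM added to both medians. Of 9 other lipases, 0 were higher without overlap (0.496% of all genes were), 5 were lower (76.2% of all genes were) and 4 overlapped, with a median log2 ratio of -1.58, against -1.72 over all genes. These counts are at or below the shares over all genes and say nothing particular about lipases. Dagla and Daglb, diacylglycerol lipases, had the highest of these ratios, with medians of 14.9 and 0.521 CPM in the adult type and 14.8 and 1.02 CPM in the newborn type. Lipa, the lysosomal acid lipase, and Lipc, the hepatic lipase, had the lowest, with medians of 0.714 and 0.526 CPM in the adult type and 9.94 and 7.00 CPM in the newborn type. Of 7 other phospholipases A2, 0 were higher, 6 were lower and 1 overlapped, with a median of -2.07, which is likewise read against those shares. Pla2g15, a lysosomal phospholipase, and Pla2g12a had the highest ratios, with medians of 1.38 and 6.18 CPM in the adult type and 3.92 and 21.3 CPM in the newborn type. Pla2g4a, the cytosolic phospholipase that releases arachidonic acid, and Pla2g7, which breaks down platelet-activating factor, had the lowest, with medians of 1.21 and 0.456 CPM in the adult type and 18.3 and 5.52 CPM in the newborn type. With nothing added, the lowest would be Pla2g12b and Pla2g2d, with medians of 0 and 0.142 CPM in the adult type and 1.54 and 3.16 CPM in the newborn type, and Pnpla2 would stand above Daglb, with medians of 1.20 CPM in the adult type and 2.15 CPM in the newborn type.

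Lists of genes that regulate or carry out acinar secretion had median log2 ratios of -1.29, -0.98 and -1.14, against -1.72 over all genes. Since 0.496% of all genes were higher in the adult type without overlap, a count of 0 in such short lists is near the background, and 76.2% of all genes were lower. Of 12 acinar transcription factors, 0 were higher, 4 were lower and 8 overlapped (median -1.29). Bhlha15, which drives granule maturation, and Ptf1a, the pancreas-specific subunit of PTF1, had the highest ratios, with medians of 9.13 and 17.3 CPM in the adult type and 8.69 and 25.6 CPM in the newborn type. Gata6, a factor of pancreas development, and Rbpj, the Notch effector that RBPJL replaces in PTF1, had the lowest, with medians of 9.84 and 0.556 CPM in the adult type and 43.4 and 3.27 CPM in the newborn type. Of 5 secretagogue receptors, 0 were higher, 2 were lower and 3 overlapped (median -0.98). Cckar, a cholecystokinin receptor, had the highest ratio, at 26.5 to 33.9 CPM in the adult type and 41.0 to 59.3 CPM in the newborn type, followed by the muscarinic receptor Chrm1 (medians 0.481 CPM in the adult type and 1.43 CPM in the newborn type). The secretin receptor Sctr had the lowest ratio, with medians of 0.0626 CPM in the adult type and 1.47 CPM in the newborn type, followed by Chrm3 (3.39 CPM in the adult type and 10.8 CPM in the newborn type). Of 20 genes for signal recognition and translocation into the endoplasmic reticulum, 0 were higher, 12 were lower and 8 overlapped (median -1.14). Sec11c, a signal peptidase subunit, and Srp9 had the highest ratios (medians 5.76 and 202 CPM in the adult type, 4.57 and 257 CPM in the newborn type), and Sec11a and Ssr2 the lowest (3.13 and 2.20 CPM in the adult type, 12.3 and 8.63 CPM in the newborn type).

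**Figure D4:**
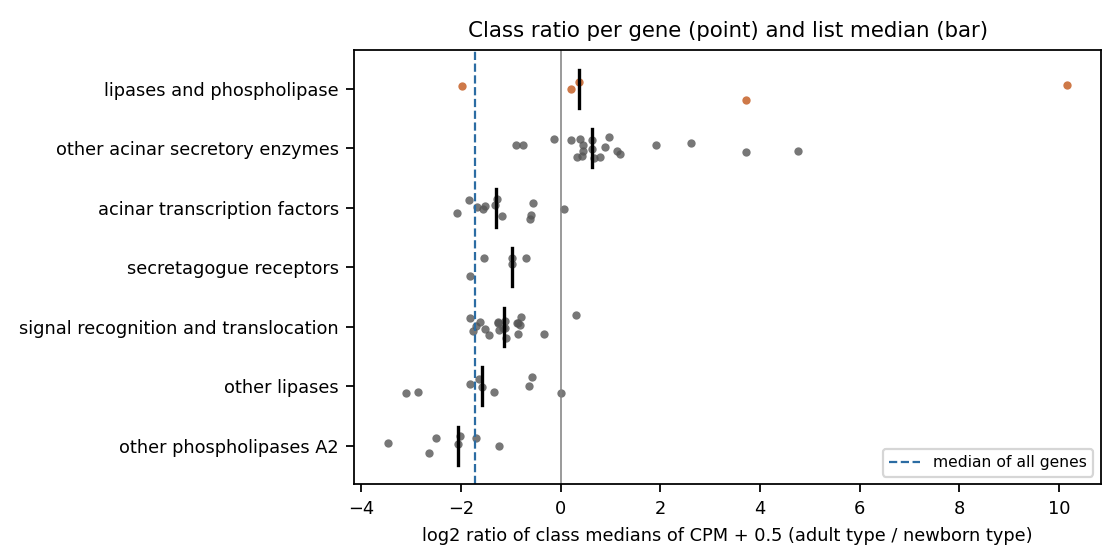
Log2 ratio of class medians (adult type over newborn type, CPM plus 0.5) for each gene of 7 lists, with list medians as bars and the median of all genes as a dashed line at -1.72. The lipase and phospholipase set runs from -1.99 (Pnliprp1) to 10.16 (Pnlip, whose count set the classes), with Pla2g1b next below Pnlip at 3.72. The other acinar enzymes run from -0.90 to 4.77.

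Markers of other cell types also differed between the classes. On the CPM scale 76.2% of all genes were lower in the adult type without overlap, so the counts of lower markers are close to what most genes gave. The list medians of the log2 ratio were -3.63 for islet, -5.48 for mesenchyme and -5.53 for hepatocyte genes, against -1.72 over all genes. All 7 islet genes with at least 1 CPM were lower without overlap, with list sums of 104 to 370 CPM in the adult type and 1188 to 2372 CPM in the newborn type, and Pdx1 was at 0 in every library. Mesenchyme genes summed to at most 79.4 CPM in the adult type (median 46.1) and to 1395 to 2254 CPM in the newborn type (5 of 5 lower), and hepatocyte genes to 3.26 to 16.3 CPM in the adult type and 367 to 1104 CPM in the newborn type (6 of 6 lower). Sums for duct genes were 6.25 to 16.3 CPM in the adult type and 38.0 to 82.6 CPM in the newborn type, and for erythroid genes 5.01 to 67.4 CPM in the adult type and 123 to 271 CPM in the newborn type. The sum of stomach and duodenum genes was 0.418 to 2.24 CPM in the adult type and 34.4 to 687 CPM in the newborn type. Adipocyte and lymphocyte genes overlapped, at 6.63 to 82.9 CPM and 0.104 to 43.6 CPM in the adult type and 23.9 to 40.7 CPM and 4.99 to 25.3 CPM in the newborn type. The part of these other cells in the class ratios of the lipases was not tested.

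The likeness of other genes to the 5 was described with no p, over libraries that share depth differences and scaling. Across all 22 libraries, where the class split dominates, log2 CPM of Pnlip was most like that of Zg16, a granule lectin (Pearson r = 0.993), Ctrl (0.991) and Ctrc (0.990), and Pla2g1b like Ctrc (0.991), Reg2 (0.986) and Ctrl (0.986). Pnliprp1 was instead most like Hand2 and Mest (0.991 each) and Col6a2 (0.989), genes known from mesenchyme or fetal growth. Pnliprp2 was most like Sycn, a granule protein (0.890), Retreg1 (0.836) and Arg2 (0.829), and Cel like Dapk2 (0.777), Urah (0.746) and Fut1 (0.744). Within the 14 newborn-type libraries, Pnlip was most like Ptf1a (Spearman rho = 0.78), Yif1a (0.78) and Hcfc1r1 (0.76), and Cel like Bex4 (0.80), Ptf1a (0.74) and Rcn1 (0.74). Pnliprp1 was there most like Tom1 and Cela1 (0.72 each) and Cdk18 (0.66), Pnliprp2 like Gnptab (0.86), Atg5 (0.83) and Btaf1 (0.82), and Pla2g1b like Psmc1 (0.85), Psma6 (0.80) and Polr3b (0.78). These newborn-type values are the highest out of 5686 genes compared, so they can be high by ranking alone.

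Inside a class the 5 genes had no common order of libraries. Over the 10 pairs of genes, Spearman rho ran from -0.47 (Pnliprp1 with Pla2g1b) to 0.43 (Pnlip with Cel) in the newborn type and from -0.29 (Pnlip with Pnliprp1) to 0.48 (Pnliprp2 with Pnlip and with Cel) in the adult type. With 8 adult-type libraries the likest genes had high values by ranking alone: for Pnlip they were Tbca (0.90), Ndufb4 (0.88) and Sycn (0.88), for Pnliprp1 Tpt1 (0.98), Asns (0.95) and Mat1a (0.95), for Pnliprp2 Asah2, Kif3b and Pdcd4 (0.98 each), for Cel Csnk1a1 (0.98), Foxa3 (0.95) and Fundc1 (0.95), and for Pla2g1b Minos1 (1), Cuzd1 (0.98) and Ddb1 (0.98), out of 2339 genes compared.

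The study asked what dioxin given before and during pregnancy does to the pancreas of dams and pups. The TCDD label was tested within each class, with edgeR's quasi-likelihood test and Benjamini-Hochberg adjustment over all probes tested. These fits took each library as independent, although TCDD was given to dams and some libraries share litter numbers (the numbers in their labels). The newborn type holds control litter numbers 2, 4 and 7 and TCDD litter numbers 6, 8, 10 and 11. The adult type holds control litter numbers 5 and 7 and TCDD litter numbers 6, 8, 10 and 11. If animals of a litter are alike, the SE and p can be too small. All 7 probes passed the low-count filter in every comparison. No probe of the set passed at an adjusted p of 0.05 in either class. Whether the chemical labels fit their libraries was not tested, and 7 libraries labelled TCDD and 6 labelled control went against another label. The labels give 4 TCDD dams and 4 control dams, while the adult type holds 6 libraries labelled TCDD and 2 labelled control. If the adult-type libraries are the dams and these numbers of animals are right, some chemical labels are wrong in both classes. The fold changes and calls below carry that limit.

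In the adult type, 0 of 7 probes were called, where 0% of 13513 probes were (350 had an unadjusted p below 0.05, and DESeq2 and limma-voom also called 0). Pnlip stood at 40765 to 48925 CPM in the 6 libraries labelled TCDD (median 45210), against 43691 and 44208 CPM in the 2 labelled control. Both control values fall inside the TCDD range. Pnliprp1 stood at 11611 to 15261 CPM in TCDD-labelled libraries (median 12802), against 12139 and 10698 CPM in control, with 1 control value below the TCDD range. Its probe 59640 had the smallest p of the set, with a log2 fold change of 0.36 ± 0.185 (SE; unadjusted p = 0.0683, adjusted p = 1, edgeR), and probe 29077 had 0.30 ± 0.196.

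The other genes of the adult type were closer to 0. Cel stood at 23261 to 31501 CPM in TCDD-labelled libraries (median 24896), against 25233 and 23720 CPM in control, and Pnliprp2 at 1448 to 2078 CPM (median 1744), against 1765 and 1811 CPM in control. Pla2g1b stood at 537 to 1292 CPM in TCDD-labelled libraries (median 717), against 777 and 893 CPM in control. In each case the control values lay inside the TCDD range. The log2 fold changes were 0.23 ± 0.229 and 0.13 ± 0.199 for the Pnlip probes, 0.20 ± 0.195 for Cel, 0.09 ± 0.184 for Pnliprp2 and 0.02 ± 0.209 for Pla2g1b. The 7 probes had a median of 0.20, against 0.02 over all probes. With 2 control libraries, 1 of them can set these values. Pnliprp1 moved most: its probes 59640 and 29077 were at 0.16 and 0.067 without control dam 7, and at 0.58 each without control dam 5. Cel was at 0.014 without control dam 7 and at 0.41 without control dam 5. Without control dam 7, Pnlip probe 64704 was at -0.042, Pnlip probe 31007 at 0.13, Pnliprp2 at -0.035 and Pla2g1b at -0.037.

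In the newborn type, 0 of 7 probes were called, where 0% of 17109 probes were (545 had an unadjusted p below 0.05, and DESeq2 and limma-voom also called 0). Pla2g1b had the smallest p, with a log2 fold change of -0.24 ± 0.0880 (SE; unadjusted p = 0.0112, adjusted p = 1, edgeR). Its values were 49.6 to 65.6 CPM in the 6 TCDD-labelled libraries (median 54.2) and 45.6 to 73.7 CPM in the 8 control-labelled ones (median 58.4), so the TCDD range lay inside the control range. With library totals in place of TMM factors the fold change was -0.079, and with only libraries that match their stage label it was -0.32.

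Pnlip was low under both labels of the newborn type, at 26.5 to 91.6 CPM in TCDD-labelled libraries (median 38.4) and 22.3 to 64.4 CPM in control-labelled ones (median 38.7). Its probes had log2 fold changes of 0.12 ± 0.367 and 0.02 ± 0.313, and without the library labelled TCDD female pup 10 the values for probes 31007 and 64704 were -0.23 and -0.31. Pnliprp1 stood at 42646 to 54106 CPM in TCDD-labelled libraries (median 48389) and 43712 to 56755 CPM in control-labelled ones (median 48590), with log2 fold changes of -0.19 ± 0.119 for probe 29077 and -0.16 ± 0.111 for probe 59640. With library totals in place of TMM factors these were -0.02 and 0.00, and without control dam 4 they were -0.092 and -0.07. Cel stood at 18805 to 25235 CPM in TCDD-labelled libraries and 18441 to 24277 CPM in control-labelled ones (-0.12 ± 0.113), and Pnliprp2 at 1290 to 1589 CPM in TCDD-labelled libraries and 1161 to 1613 CPM in control-labelled ones (-0.14 ± 0.0927). The ranges overlapped for every gene. The 7 probes had a median of -0.14, against -0.00 over all probes.

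**Figure D5:**
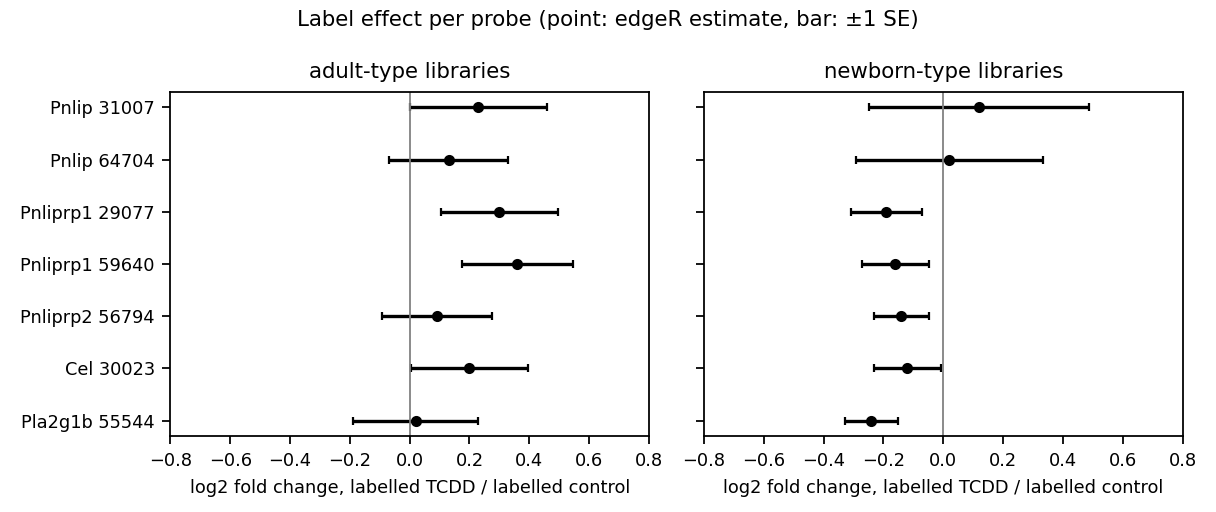
Log2 fold change of libraries labelled TCDD over libraries labelled control, per probe, within the adult type (left, 6 against 2 libraries) and the newborn type (right, 6 against 8). Points are edgeR estimates and bars are ±1 SE. No probe passed an adjusted p of 0.05, and the largest values are 0.36 for Pnliprp1 59640 in the adult type and -0.24 for Pla2g1b in the newborn type.

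The difference in the label's effect between the classes was tested as an interaction, and 0 of 7 probes were called, where 0% of 19209 probes were (1461 had an unadjusted p below 0.05, DESeq2 called 23 and limma-voom 0, none of them in the set). Pnliprp1 came nearest, with interaction values on the log2 scale of 0.52 ± 0.214 for probe 59640 (unadjusted p = 0.0194, adjusted p = 0.563, edgeR) and 0.50 ± 0.230 for probe 29077 (unadjusted p = 0.0370, adjusted p = 0.614). With library totals in place of TMM factors these were 0.24 and 0.21. A p that misses the threshold does not show that the label had no effect on these genes.

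Among the other acinar secretory enzymes no probe was called for the label. Of 30 probes for 21 genes, 0 passed in either class, with a median log2 fold change of 0.16 in the adult type and -0.19 in the newborn type. An unadjusted p below 0.05 was reached by 0 of the 30 in the adult type and by 10 of the 30 in the newborn type, where 545 of all 17109 probes reached it. The smallest p values were those of Amy1 (0.38 ± 0.212) and Ctrl (0.33 ± 0.190) in the adult type, and of 2 probes of Cpb1, a carboxypeptidase, in the newborn type (-0.38 ± 0.127 and -0.28 ± 0.105). Across other lipases, other phospholipases A2, acinar transcription factors, secretagogue receptors and the translocation genes, 0 probes passed in either class. Summed mesenchyme markers were 2101 to 2254 CPM in TCDD-labelled newborn-type libraries and 1395 to 2231 CPM in control-labelled ones. In the adult type, summed hepatocyte markers were 3.26 to 12.5 CPM in TCDD-labelled libraries and 13.9 to 16.3 CPM in control-labelled ones, without overlap, and none of their 4 probes was called (Alb -3.05 ± 0.756, unadjusted p = 0.00114, adjusted p = 1, edgeR). Summed lymphocyte markers of the adult type were 0.104 to 13.8 CPM in TCDD-labelled libraries and 0.130 and 43.6 CPM in control-labelled ones, with a median log2 fold change of -2.24 over 6 probes, none of them called. The sums of the other marker lists overlapped between the labels in both classes. The part of these markers in the lipase values was not tested.

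By label, the TCDD-labelled pup groups mix the classes, while all control-labelled pups are of the newborn type. Pnlip had to follow the class, since its count set the classes, so its values and calls by label are a description. On the CPM scale Pnliprp1 and Pla2g1b did not overlap between the classes, while Pnliprp2 and Cel did. Among male pups, 3 of 4 TCDD-labelled libraries and 0 of 3 control-labelled ones were of the adult type. Pnlip was 48925, 43256 and 40765 CPM in the libraries labelled TCDD male pups 11, 8 and 10 and 29.9 CPM in male pup 6, against 57.7, 49.9 and 64.4 CPM in control male pups 4, 2 and 7. Pnlip probe 31007 then had a log2 fold change of 11.38 ± 2.67 (adjusted p = 0.262, edgeR), and 0 of 7 probes were called, where 0% of 16176 probes were (2712 had an unadjusted p below 0.05). DESeq2 called 5 of the 7 probes in that comparison (514 of all probes; limma-voom called 0), namely both of Pnlip and those of Pla2g1b, Pnliprp2 and Cel, and so did edgeR without the library labelled TCDD male pup 6 (6442 of all probes). Only 1 TCDD and 3 control libraries of this comparison match their stage label. With these alone, edgeR gave Pnlip probe 31007 a log2 fold change of -1.37 ± 0.236, in the opposite direction. The stage match rests on the classes, which the Pnlip count itself helped to set. In that fit the lone TCDD library is assumed to vary like the control libraries.

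Female pups and dams gave no calls. Of the libraries labelled TCDD female pup, number 6 was of the adult type with 45533 CPM of Pnlip, and numbers 8, 10 and 11 had 36.4, 91.6 and 40.4 CPM, against 40.8, 34.6 and 36.6 CPM in control female pups 2, 4 and 7. Pnlip probe 64704 had a log2 fold change of 9.73 ± 3.60 (adjusted p = 0.996, edgeR), and 0 of 7 probes were called, where 0% of 17513 probes were (287 had an unadjusted p below 0.05, and limma-voom called 0). DESeq2 also called 0, but it gave no p for both Pnlip probes and the Pla2g1b probe, so its count covers the other 4 probes of the set. The dams held 2 adult-type libraries under each label. Pnlip was 46615 and 44888 CPM in TCDD dams 8 and 11 and 26.5 and 64.4 CPM in TCDD dams 10 and 6, against 43691 and 44208 CPM in control dams 5 and 7 and 26.3 and 22.3 CPM in control dams 4 and 2. Here too 0 of 7 probes were called, where 0% of 15594 probes were (149 had an unadjusted p below 0.05, and DESeq2 and limma-voom called 0), and the Pnlip probes had log2 fold changes of 0.36 ± 2.64 and 0.23 ± 2.59.

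Pnliprp1 shows the same mixing in the other direction on the CPM scale. It was 11611, 14392 and 13340 CPM in the libraries labelled TCDD male pups 11, 8 and 10 and 42754 CPM in male pup 6, against 43712, 48239 and 49320 CPM in control male pups 4, 2 and 7. After TMM scaling its 2 probes had log2 fold changes of -0.03 ± 0.419 and 0.06 ± 0.365 in that comparison, in which the Pla2g1b probe had 4.93 ± 1.19, Pnliprp2 1.87 ± 0.558 and Cel 1.76 ± 0.699. Pla2g1b was 537, 679 and 755 CPM in TCDD male pups 11, 8 and 10 and 65.6 CPM in male pup 6, against 65.3, 64.9 and 57.6 CPM in control male pups 4, 2 and 7. For Pnliprp1 and Pla2g1b the library labelled TCDD male pup 6 lay near the control pups. The other TCDD-labelled male pups lay in the range of the adult-type dams or close to it. Pnliprp2 and Cel, whose classes overlapped in CPM but not with TMM scaling, split only in part in CPM. Pnliprp2 was 1448 CPM in TCDD male pup 8, inside the 1345 to 1479 CPM of control male pups. It was 1726 and 1788 CPM in TCDD male pups 10 and 11, above that range. Cel was 23558 CPM in TCDD male pup 10, inside the 20831 to 24277 CPM of control male pups. It was 25558 and 26667 CPM in TCDD male pups 8 and 11, above that range. In TCDD male pup 6, Pnliprp2 was 1475 CPM, inside its control range, and Cel 18805 CPM, below its own.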

How the data were processed

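One table of raw whole-number counts per probe was deposited by the authors, with no normalization stated in the labels or the file header. Per the submitters' processing notes, bcl2fastq 2.17.1.14 made the reads, and no aligner is given in the sources used here. Counts are reads without molecular identifiers. Probes were fitted with edgeR 4.0.16 in R 4.3.3 (filterByExpr, TMM scaling, quasi-likelihood test with robust estimation, Benjamini-Hochberg adjustment, threshold 0.05). DESeq2 1.42.0 and limma 3.58.1 were alternatives. Only edgeR's fit of the label within each class was tested on simulated data. CPM sum the probes of a gene over the library total. Fold changes are log2 values that include TMM factors, given with the model's SE. The members, classes and gene lists were chosen with earlier results of these data known. All 5 genes with a probe are named, with the 2 highest and 2 lowest class ratios of each list (0.5 CPM added to both medians, since a median can be 0) and, for the TCDD label, the 2 smallest p of the acinar enzymes.

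Libraries of a group are separate animals, per the labels, and the closest pair within a group differed by more than sampling noise (chi-square over degrees of freedom 8.09). Of 21 pairs with the same litter number, 5 had a correlation of deviations over 0.1 (median -0.0411). The median was -0.0995 over 90 pairs with the same chemical label and another litter number. Deviations were taken from the mean of each class and chemical label, which pushes correlations within a group below 0. These values therefore cannot show whether litter numbers pair the libraries. Promoter sequences and start sites are RefSeq's. Probe sequences were not used here.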

Additional observations from a re-analysis of the deposited data

Results flagged for a closer look

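In 4 of 35 sets of values (5 genes, each in 7 groups by label or by class and chemical label), 1 library lay far from the rest by Dixon's test at the 95% level. Chance flags about 1 group in 20, but that rate does not apply to these flags. The Pnlip count set the classes, and Pnliprp1 and Pla2g1b did not overlap between the classes in CPM. For these genes a lone library of the other class had to lie outside the range of its group, though not always far enough to be flagged. Pnliprp1 in the library labelled TCDD female pup 6, at 15261 CPM, was not flagged. The library labelled TCDD female pup 6 stood at 45533 CPM of Pnlip and 1292 CPM of Pla2g1b, against 36.4 to 91.6 CPM and 49.6 to 57.7 CPM in the other TCDD female pups. The library labelled TCDD male pup 6 stood at 29.9 CPM of Pnlip and 42754 CPM of Pnliprp1, against 40765 to 48925 CPM and 11611 to 14392 CPM in the other TCDD male pups. Each is the only library of its class in its labelled group.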

How the results depend on the processing

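Of 90 recomputed counts of called lipase probes, 87 stayed at 0, among them that of DESeq2 in female pups, which gave no p for 3 of the 7 probes. The other 3 concern labelled male pups, which mix the classes. DESeq2 called 5 probes, where 514 of 16176 probes were called. Leaving out each library in turn gave 0 to 5, the 5 arising without TCDD male pup 6, where 6442 of 15379 probes were called. The last used only libraries that match their stage label, which left 1 TCDD library, so its count is not read. The cause was not tested. Fold changes within a class were recomputed for the probe of each gene with the higher mean count (64704 for Pnlip, 29077 for Pnliprp1). No adjusted p crossed 0.05 in 170 recomputations, but 21 changed sign. With library totals instead of TMM, the newborn-type values were 0.021 for Pnliprp2 and 0.038 for Cel, and the adult-type values -0.0038 for Pnlip (0.07 for probe 31007), -0.037 for Pnliprp2 and -0.083 for Pla2g1b. With limma-voom, without and with the litter number as a replicate block, newborn-type Pnlip was -0.027 and -0.028 (0.06 and 0.05 for probe 31007), and adult-type Pla2g1b -0.012 and -0.0078; the block changed no call. With stage-matching libraries alone, a setting chosen for fold changes after seeing the data, newborn-type Pnlip was -0.046 (-0.04 for probe 31007). Leaving out 1 library at a time gave newborn-type Pnlip values of -0.31 to 0.16, and adult-type values of -0.042 to 0.31 for Pnlip, -0.035 to 0.23 for Pnliprp2 and -0.059 to 0.083 for Pla2g1b. All 30 recomputed class ratios of summed probes kept their sign, though that of Pnliprp1 shrank to -0.061 with TMM and -0.022 with DESeq2 size factors. Its probe 59640 changed sign, from -1.94 with library totals to 0.04 with TMM and 0.06 with DESeq2 size factors. Of the 30, 16 moved by more than the spread between libraries, all but that of Cel with stage-matching libraries (0.07) under another scaling. No value could be computed for Clps. Depth limits Pnlip in the newborn type little, since each library held at least 255 counts.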
